A study of Mus musculus with 10 samples.

Results

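Mitochondrial ribosomal protein genes were taken as the protein-coding genes named Mrpl or Mrps followed by a number, which gave 78 genes of 54532 in the deposited table, 49 of the large subunit (Mrpl) and 29 of the small subunit (Mrps). Their mRNA was sequenced from poly-A selected RNA of B cells of the spleen. The fibrosis group (5 libraries) came from mice whose livers were scarred by carbon tetrachloride (CCl4), a hepatocyte toxin, injected into the peritoneum for 4 weeks, and the control group (5 libraries) from wildtype mice. The comparison asks what differs in B cells of the spleen between these groups. Liver fibrosis and exposure to CCl4 come together in the fibrosis group and cannot be told apart. The same holds for the injections if the wildtype mice had none. Strain, sex, age, any injection of the wildtype mice and the method of B cell isolation were not stated in the sources used here. Whether each library stands for another animal is not stated either, and p-values then describe only the spread among these libraries, part of which may be technical.

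Mitochondria hold their own ribosomes, which translate the few mRNAs of the mitochondrial genome into hydrophobic subunits of the respiratory chain and the ATP synthase. The ribosomal RNAs of this machine are transcribed inside the organelle, whereas all of its proteins are encoded in the nucleus, made in the cytosol and imported. B cells raise mitochondrial mass and translation when they are activated and divide. Some proteins descend from those of bacterial ribosomes, and others exist only in mitochondria.

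In the fibrosis libraries 19 of the 77 tested genes (24.7%) were lower and none was higher, at an adjusted p under 0.05 in edgeR's quasi-likelihood test fitted on all 14283 tested genes. Over all tested genes, 17.2% were lower and 18.6% were higher. The 77 genes moved together from library to library, with a median pairwise correlation of 0.53 after group means were removed. Their calls are therefore not independent of each other. The 19 were Mrps36, Mrpl28, Mrps2, Mrpl18, Mrps18b, Mrps28, Mrpl51, Mrpl49, Mrps5, Mrpl34, Mrpl16, Mrpl57, Mrps12, Mrpl37, Mrpl38, Mrpl19, Mrps7, Mrps17 and Mrpl46. Their log2 fold changes were between -0.65 and -0.25, so the decreases were small. At an unadjusted edgeR p under 0.05, 29 genes had a negative fold change and 1, Mrps33, a positive one, and DESeq2 and limma voom called none higher. The gene left out of the test, Mrpl53, had no count in any library. Its listed interval, chr6:83109040-83109939 on the plus strand, lies wholly inside the gene Gm42688 on the same strand.

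The median log2 fold change of the 77 genes was -0.15, against 0.05 over all tested genes. The middle 50% of the 77 lay between -0.30 and 0.04, and of all tested genes between -0.25 and 0.34. All 5 fibrosis libraries lay below all 5 control libraries for 13 of the 77 genes, which is 16.9%, close to the 14% of all tested genes with that order. No gene had all 5 fibrosis libraries above all 5 control libraries, an order that 11.4% of all tested genes had. Scaling by library size alone, which moved the median of all genes by -0.11, put 38 genes lower and kept none higher. That scaling also changed the split over all tested genes to 1777 higher and 3306 lower, and an offset for gene length and GC content gave 2259 higher and 3225 lower, against 2654 higher and 2451 lower. In bulk libraries, fewer cells of a kind and less RNA per cell cannot be told apart.

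The start regions of 69 of the 78 genes were present in the RefSeq promoter table for GRCm38.p6, as windows from 250 bases before to 50 bases after a start given by RefSeq. These starts can differ from the ends of the gene intervals in the deposited table. For Mrpl18 and Mrpl51 the RefSeq start lies inside the deposited interval, and so does the whole window. The windows of 5 genes that fell or that share their start with an oppositely directed gene are shown first, followed by that of Mrpl28, which fell by 0.56 on the log2 scale and holds none of the motifs searched. Each is given 5′ to 3′ on the gene's own strand. Capitals mark matches, on either strand, to the letters CCGGAAGT, bound by ETS-family factors such as GABP, or AANATGGC, the core of the YY1 motif.
Mrpl18: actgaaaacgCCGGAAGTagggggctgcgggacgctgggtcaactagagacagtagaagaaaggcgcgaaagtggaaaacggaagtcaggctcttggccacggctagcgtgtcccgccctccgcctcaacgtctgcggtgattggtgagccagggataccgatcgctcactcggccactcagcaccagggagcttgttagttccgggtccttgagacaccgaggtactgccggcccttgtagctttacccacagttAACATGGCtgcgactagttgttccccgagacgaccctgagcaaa
Mrpl51: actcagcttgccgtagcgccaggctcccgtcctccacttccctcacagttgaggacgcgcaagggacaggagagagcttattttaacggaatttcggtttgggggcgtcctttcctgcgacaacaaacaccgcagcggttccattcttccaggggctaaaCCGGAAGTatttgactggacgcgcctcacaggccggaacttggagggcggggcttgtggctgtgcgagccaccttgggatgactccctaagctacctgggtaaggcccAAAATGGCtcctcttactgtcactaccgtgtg
Mrpl49: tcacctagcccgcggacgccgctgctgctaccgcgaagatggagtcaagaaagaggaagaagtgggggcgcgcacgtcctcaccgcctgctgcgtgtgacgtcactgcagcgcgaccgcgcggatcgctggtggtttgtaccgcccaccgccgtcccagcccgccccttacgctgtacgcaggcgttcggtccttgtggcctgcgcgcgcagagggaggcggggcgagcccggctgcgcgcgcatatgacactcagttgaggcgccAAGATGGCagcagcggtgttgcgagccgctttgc
Mrps12: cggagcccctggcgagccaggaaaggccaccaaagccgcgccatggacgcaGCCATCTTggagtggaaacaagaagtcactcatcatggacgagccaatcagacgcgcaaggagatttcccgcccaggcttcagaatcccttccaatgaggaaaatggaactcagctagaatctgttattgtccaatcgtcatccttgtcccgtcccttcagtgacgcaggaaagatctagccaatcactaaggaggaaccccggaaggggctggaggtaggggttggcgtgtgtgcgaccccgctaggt
Mrpl43: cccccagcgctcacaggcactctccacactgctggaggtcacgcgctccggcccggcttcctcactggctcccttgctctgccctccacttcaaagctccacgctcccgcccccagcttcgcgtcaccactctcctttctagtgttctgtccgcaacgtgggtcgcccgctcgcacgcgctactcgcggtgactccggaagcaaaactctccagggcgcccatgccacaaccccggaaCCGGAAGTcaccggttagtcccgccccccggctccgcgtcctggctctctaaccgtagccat
Mrpl28: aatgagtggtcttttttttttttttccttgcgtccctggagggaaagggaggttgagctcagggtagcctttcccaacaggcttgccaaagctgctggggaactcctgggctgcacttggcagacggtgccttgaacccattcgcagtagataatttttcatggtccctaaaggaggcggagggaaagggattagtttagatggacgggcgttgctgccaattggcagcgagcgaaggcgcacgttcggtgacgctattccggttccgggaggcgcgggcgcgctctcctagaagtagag
The windows lie at chr17:12916042-12916341 on the minus strand for Mrpl18, chr6:125191950-125192249 on the plus strand for Mrpl51, chr19:6057706-6058005 on the minus strand for Mrpl49, chr7:28741772-28742071 on the minus strand for Mrps12, chr19:45006393-45006692 on the minus strand for Mrpl43 and chr17:26123253-26123552 on the plus strand for Mrpl28. In Mrpl18, Mrpl51 and Mrpl49 the YY1 letters lie just after the RefSeq start and include an ATG, and in Mrps12 they lie on the other strand, inside the window's upstream end.

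The 69 genes had 75 windows, since some have more than 1 start. The YY1 letters were present in 21 of the 75 windows (28.0%), against 8.35% of the windows of tested protein-coding genes and 6.05% of all promoter windows. In 16 windows (21.3%) the match lay after the RefSeq start, against 3.99% and 2.05%. The ETS letters were present in 12 of the 75 windows, against 8.0% and 3.89%. The palindromic NRF1 consensus, 10 bases long, was present in 4.0%, against 2.04% and 0.971%, and the E-box CACGTG in 9.33%, against 9.85% and 7.15%. Each motif was searched on both strands, and a base could count for more than 1 motif. Among the 16 windows of genes that fell, 6 held the YY1 letters and 2 the ETS letters, and among the 58 windows of tested genes that did not pass, 15 held the YY1 letters and 10 the ETS letters. A match is a run of letters and not a measured binding site.

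Of 11 regulators of mitochondrial gene expression, among them factors that read these letters, 2 rose and 1 fell. These are 18.2% and 9.09%, against 18.6% and 17.2% of all tested genes. Yy1 had a log2 fold change of -0.01 ± 0.09 (SE, edgeR adjusted p = 0.957), and Gabpa, the DNA-binding subunit of GABP, of 0.15 ± 0.10 (edgeR adjusted p = 0.274). Nrf1, a factor for nuclear genes of mitochondria, had -0.20 ± 0.10 (edgeR adjusted p = 0.117) and Myc -0.19 ± 0.13 (edgeR adjusted p = 0.275). The GABP partners Gabpb1 and Gabpb2, the Myc partner Max and the coactivator Ppargc1b did not pass either, with log2 fold changes of -0.14, -0.00, 0.10 and -0.45. The coactivator Pprc1 had 88.3, 90.5, 80.2, 61.5 and 66.1 CPM (counts scaled to the TMM library size) in fibrosis libraries 1 to 5, against 113, 116, 113, 113 and 117 CPM in control libraries 1 to 5. All fibrosis libraries lay below all control libraries, and Pprc1 fell by 0.56 ± 0.11 on the log2 scale (edgeR adjusted p = 0.00131). The coactivator Ppargc1a rose by 1.59 ± 0.32 (edgeR adjusted p = 0.00201) from a low level, with 1.27 to 2.39 CPM in the fibrosis libraries and 0.22 to 0.792 CPM in the control libraries. The nuclear receptor Esrra rose by 0.28 ± 0.08 (edgeR adjusted p = 0.0168), but its adjusted p was 0.0504 without control library 1 and 0.097 with libraries scaled by library size alone.

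The genes that fell most were spread over both subunits. Mrps36, chr13:100735955-100744659 on the minus strand, is grouped by its name with the small subunit, although its protein is now counted as a subunit of the 2-oxoglutarate dehydrogenase complex of the citric acid cycle. It had 21.8, 17.9, 15.5, 22.8 and 20.0 CPM in fibrosis libraries 1 to 5, against 34.0, 29.4, 25.1, 30.7 and 34.9 CPM in control libraries 1 to 5. Every fibrosis library lay below every control library, and fibrosis 3 was the lowest. Mrps36 fell by 0.65 ± 0.13 on the log2 scale (edgeR adjusted p = 0.00143), and it was the one gene of the 78 that was also called when a change of at least 1.5-fold was required. The files list 3 processed pseudogenes of Mrps36, with 30, 44 and 0 counts summed over the fibrosis libraries and 26, 33 and 0 over the control libraries.

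Mrpl28, chr17:26123520-26126613 on the plus strand, is a large subunit protein with a bacterial counterpart. It had 73.6, 54.9, 45.6, 72.1 and 52.1 CPM in fibrosis libraries 1 to 5, against 92.3, 88.3, 78.0, 89.5 and 89.9 CPM in control libraries 1 to 5. The groups did not overlap, and fibrosis 1 and 4 stood closest to the controls. Mrpl28 fell by 0.56 ± 0.13 on the log2 scale (edgeR adjusted p = 0.00425).

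Mrps2, chr2:28468066-28471178 on the plus strand, is the counterpart of bacterial S2. It had 27.5, 25.9, 23.1, 23.3 and 27.6 CPM in fibrosis libraries 1 to 5, against 35.8, 35.5, 34.1, 35.8 and 38.6 CPM in control libraries 1 to 5. The groups were well separated with little spread inside either. Mrps2 fell by 0.50 ± 0.09 on the log2 scale, and its edgeR adjusted p of 0.000706 was the smallest of the 77.

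Mrpl18, chr17:12911349-12916345 on the minus strand, belongs to the central protuberance, the crown of the large subunit. It had 35.7, 31.5, 30.6, 40.6 and 34.0 CPM in fibrosis libraries 1 to 5, against 53.6, 49.0, 40.2, 47.2 and 51.1 CPM in control libraries 1 to 5. Fibrosis 4 just exceeded control 3, and all other fibrosis libraries lay below every control library. Mrpl18 fell by 0.48 ± 0.10 on the log2 scale (edgeR adjusted p = 0.00269). Its interval overlaps that of Tcp1 on the opposite strand, so reads could be split between them if counting ignored strand.

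Mrpl51, chr6:125191801-125196269 on the plus strand, and Mrpl49, chr19:6053630-6057751 on the minus strand, are large subunit proteins found only in mitochondria. Mrpl51 had 52.7, 42.2, 42.2, 55.8 and 43.1 CPM in fibrosis libraries 1 to 5, against 67.8, 63.6, 56.1, 63.8 and 66.5 CPM in control libraries 1 to 5. Mrpl49 had 45.7, 39.9, 39.3, 44.0 and 37.0 CPM in fibrosis libraries 1 to 5, against 52.3, 56.5, 56.5, 52.4 and 58.8 CPM in control libraries 1 to 5. Neither gene's groups overlapped, although fibrosis 4 of Mrpl51 came within 1 CPM of control 3. Each fell by 0.43 on the log2 scale, with edgeR adjusted p = 0.00507 for Mrpl51 and 0.00152 for Mrpl49. The Mrpl49 interval overlaps Syvn1 on the opposite strand.

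**Figure D1:**
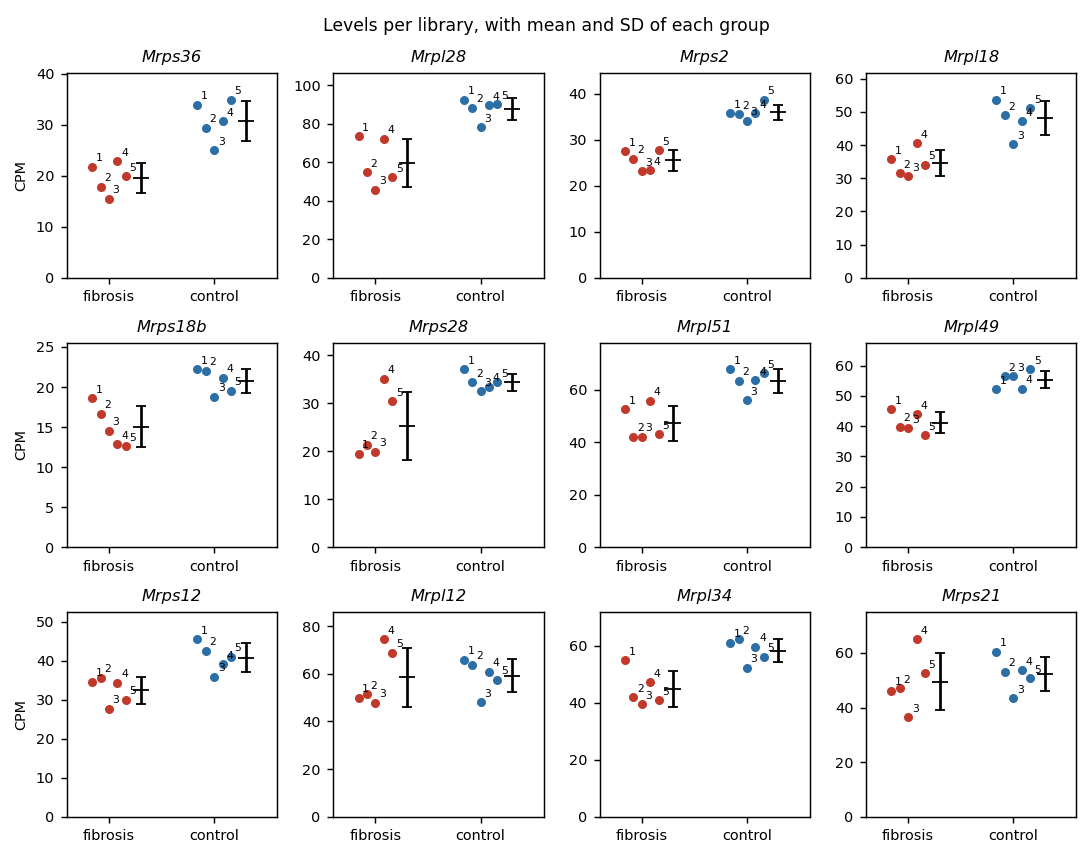
Level of 12 mitochondrial ribosomal protein genes in each library, in CPM (vertical axes start at 0), with fibrosis libraries left of control libraries and the mean and SD of each group beside its points. Mrps36 and Mrpl28 are lower in every fibrosis library than in every control library, while Mrps28 is low in fibrosis 1 to 3 and close to the controls in fibrosis 4 and 5.

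The name Mrps18 covers 3 related genes whose proteins take different places, with Mrps18a sitting in the large subunit and Mrps18b and Mrps18c in the small. Mrps18b had 18.6, 16.7, 14.5, 12.8 and 12.6 CPM in fibrosis libraries 1 to 5, against 22.2, 22.0, 18.8, 21.2 and 19.6 CPM in control libraries 1 to 5. Fibrosis 4 and 5 were the lowest libraries, and Mrps18b fell by 0.46 ± 0.12 on the log2 scale (edgeR adjusted p = 0.0104). Mrps18c had 12.6, 13.1, 13.0, 23.5 and 22.7 CPM in fibrosis libraries 1 to 5, against 13.9, 12.3, 13.1, 15.0 and 11.4 CPM in control libraries 1 to 5. In this gene fibrosis 4 and 5 were the highest of all libraries and fibrosis 1 to 3 lay within the controls, and its log2 fold change of 0.37 ± 0.19 did not pass (edgeR adjusted p = 0.152). Without fibrosis 4 and 5 the log2 fold change of Mrps18c was -0.02. Mrps18a had -0.27 ± 0.11, which did not pass (edgeR adjusted p = 0.0616).

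Genes of the decoding centre and mRNA channel of the small subunit were measured at 6 members, with a median log2 fold change of -0.28. Of these, 3 fell (50%), against 24.7% of the 77 genes and 17.2% of all tested genes. Mrps12, the counterpart of the bacterial decoding protein S12, had 34.6, 35.6, 27.6, 34.3 and 30.0 CPM in fibrosis libraries 1 to 5, against 45.5, 42.5, 35.9, 39.0 and 41.0 CPM in control libraries 1 to 5. The highest fibrosis library, fibrosis 2, stood just under the lowest control library, control 3. Mrps12 fell by 0.33 ± 0.10 on the log2 scale (edgeR adjusted p = 0.0182). Mrps7, which lies where the mRNA leaves the subunit, fell by 0.30 ± 0.09 (edgeR adjusted p = 0.0191), and its interval overlaps Gga3 and Mif4gd on the opposite strand. Without control library 1 neither passed, with adjusted p = 0.0554 for Mrps12 and 0.0539 for Mrps7. Mrps5, at the mRNA entry, fell by 0.38 ± 0.08 (edgeR adjusted p = 0.00215) and is named after its value was seen. Mrps24, at the same entry, had -0.15 ± 0.13 and did not pass (edgeR adjusted p = 0.381).

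Of the 7 genes of the central protuberance, where the mitochondrial ribosome carries a tRNA in place of the bacterial 5S rRNA, 3 fell, namely Mrpl18, Mrpl38 and Mrpl46, with a median log2 fold change of -0.25 over the 7. Mrpl58, a peptidyl-tRNA hydrolase built into this region, had -0.16 ± 0.11 (edgeR adjusted p = 0.277). Of 5 genes around the peptidyl transferase centre, where peptide bonds form, Mrpl16 fell, by 0.36 ± 0.12 on the log2 scale (edgeR adjusted p = 0.0265). Mrpl2, Mrpl3 and Mrpl4, which line this core, had -0.19, -0.16 and -0.12 and did not pass.

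None of the 6 genes at the rim of the exit tunnel and none of the 4 genes of the stalk and the L1 arm passed the edgeR test in either direction, and at an unadjusted p under 0.05 there was 1 at the rim, with a negative fold change, and 0 in the stalk and L1 arm. The rim genes Mrpl45, which holds the ribosome to the inner membrane, and Mrpl23 had log2 fold changes of -0.14 ± 0.08 and 0.09 ± 0.09. The stalk proteins recruit translation factors, and of these Mrpl10 had -0.06 ± 0.07 and Mrpl11 0.04 ± 0.11. Mrpl12, chr11:120484613-120489065 on the plus strand, is a stalk protein that also binds the mitochondrial RNA polymerase. It had 49.97, 51.4, 47.8, 74.6 and 68.8 CPM in fibrosis libraries 1 to 5, against 66.0, 63.8, 48.1, 60.8 and 57.5 CPM in control libraries 1 to 5. Fibrosis 4 and 5 were above every control library, fibrosis 1 to 3 were near or below the lowest, and the log2 fold change was -0.02 ± 0.14 (edgeR adjusted p = 0.933). Mrpl1, of the L1 arm, had 0.25 ± 0.15 (edgeR adjusted p = 0.227). DESeq2 called 0 of these 10 genes, and limma voom called 2, Mrpl22 and Mrpl17 of the rim, both lower. These groups hold only genes named Mrpl or Mrps, so Gadd45gip1, an exit tunnel protein described below whose gene fell, is not among them. Of all tested genes 17.2% were lower, and of the 77 genes 24.7%. With 4 to 7 genes in a role group, 1 call more or less changes its share widely. Differences between these role groups, or from those shares, were not tested.

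Between the subunits, 11 of 48 large subunit genes (22.9%) and 8 of 29 small subunit genes (27.6%) fell. The median log2 fold change was -0.13 in the large and -0.17 in the small subunit, and the difference between the subunits was not tested. Mrps30 and Mrps18a are placed in the large subunit by structure and Mrps36 in no subunit, and Mrps30 had a log2 fold change of 0.04 ± 0.10. The summed FPKM (counts scaled by gene length and library size) of large over small subunit genes was 2.31 ± 0.0867 in the fibrosis libraries and 2.27 ± 0.0237 in the control libraries (SD, n = 5 each), and the groups overlapped. By origin, 11 of 46 tested genes with a bacterial counterpart and 8 of 31 without one fell, with median log2 fold changes of -0.13 and -0.16.

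**Figure D2:**
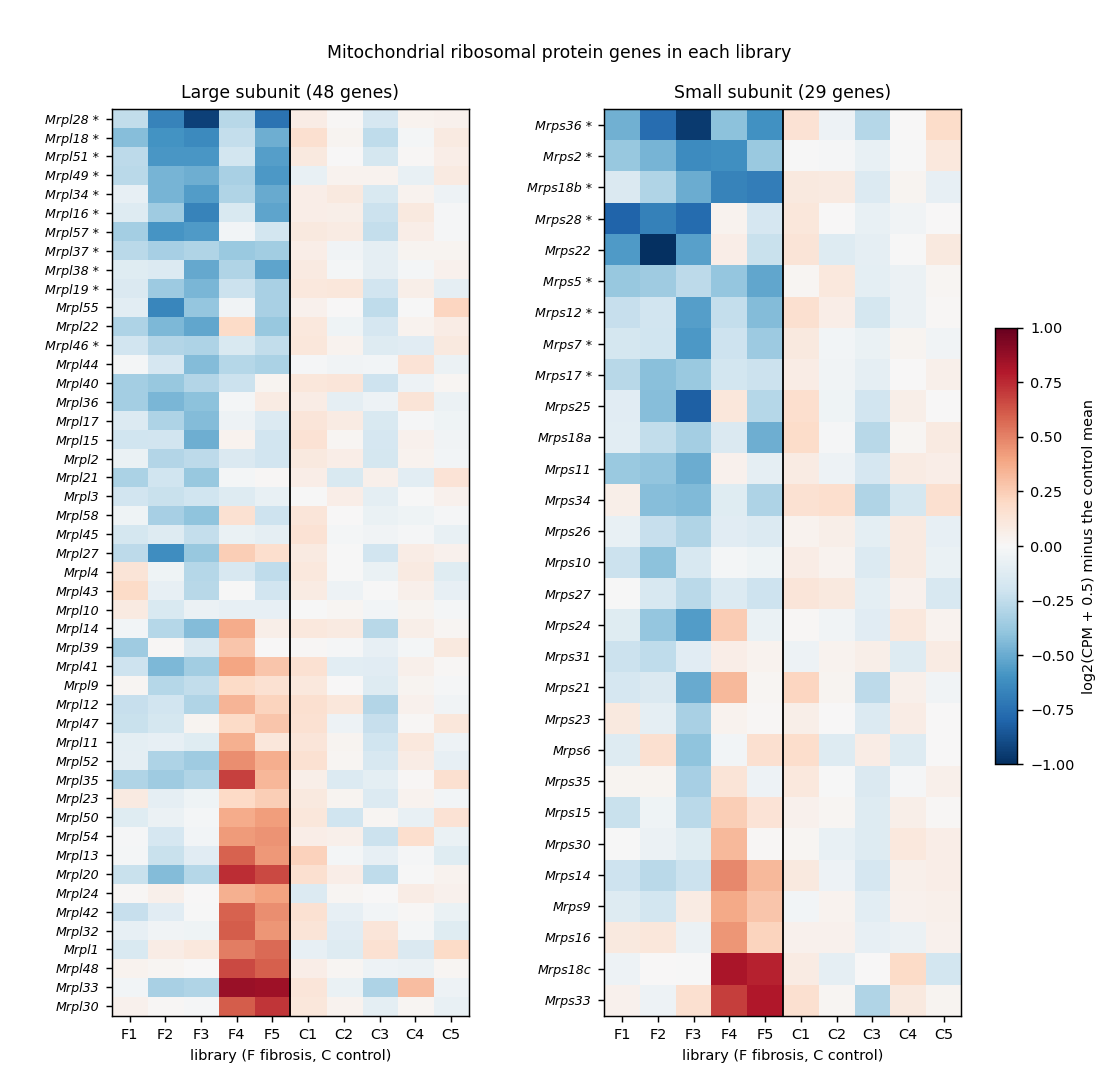
Level of each tested gene in each library as log2(CPM + 0.5) minus the mean of the control libraries, for 48 large subunit and 29 small subunit genes ordered by fold change, with fibrosis libraries (F1 to F5) left of control libraries (C1 to C5) and asterisks at the 19 genes with an adjusted p under 0.05. Many of the upper genes are lower in all fibrosis libraries, although Mrps28 and Mrps22 are near the control mean in fibrosis 4, and the lower genes are higher mainly in fibrosis 4 and 5.

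Levels per length differed widely among the genes. The highest mean FPKM over the 10 libraries belonged to Mrpl34 at 84.5, Mrps21 at 68.3, Mrpl52 at 67.9, Mrpl54 at 62.5, Mrpl43 at 58.9 and Mrpl28 at 57.5, and the lowest among tested genes to Mrpl47 at 2.66, Mrpl1 at 3.10 and Mrps10 at 3.22. Mrpl34, a large subunit protein with a bacterial counterpart, had a mean of 73.0 ± 12 FPKM in the fibrosis libraries and 96.0 ± 7.3 FPKM in the control libraries (SD, n = 5 each). It fell by 0.38 ± 0.10 on the log2 scale of the counts (edgeR adjusted p = 0.0106), although its groups overlapped. Mrps21, Mrpl52, Mrpl54, Mrpl43, Mrpl47 and Mrps10 had log2 fold changes of -0.08, 0.05, 0.15, -0.06, 0.03 and -0.17 and did not pass. Those of Mrpl52, Mrpl47, Mrpl11, Mrpl23 and Mrps30 turn negative when libraries are scaled by library size alone.

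Of the 19 genes that fell, those not yet described were chosen after their values were seen. Mrpl37, Mrpl38, Mrpl57, Mrpl19 and Mrps17 had log2 fold changes of -0.33, -0.31, -0.33, -0.31 and -0.30. Mrpl37 and Mrpl57 are large subunit proteins found only in mitochondria, Mrpl38 belongs to the central protuberance, and Mrpl19 and Mrps17 have bacterial counterparts. Of these, Mrpl37 and Mrps17 had edgeR adjusted p = 0.00258 and 0.00972, and for Mrpl38, Mrpl57 and Mrpl19 it was 0.0228, 0.0401 and 0.023. Mrpl46 fell by 0.25 ± 0.09 (edgeR adjusted p = 0.0424), and its interval overlaps that of Mrps11 on the opposite strand. When 1 library was left out at a time, 8 of the 19 lost their call at least once, namely Mrps28, Mrpl57, Mrpl16, Mrpl46, Mrpl38, Mrpl19, Mrps12 and Mrps7, and all 19 kept a negative fold change. Without control library 1 the count fell to 11. For Mrps28 the call was lost without any of fibrosis 1, 2 and 3 or any of the 5 control libraries, with adjusted p up to 0.0844, and for Mrpl57 without any of fibrosis 1, 2 and 3 or control 1, 2, 4 and 5, up to 0.09. For Mrpl46 it was lost without fibrosis 2, 3 or 5 or control 1, 2 or 5, up to 0.108, and also without a filter on low counts (0.121) and with the replicate number as a block (0.0666), and for Mrpl16 without fibrosis 3 or 5 or control 1, 2, 4 or 5, up to 0.0623. For Mrpl38 it was lost without fibrosis 3 or 5 or control 1 or 5, up to 0.0594, and for Mrpl19 without control 1, 2 or 4, up to 0.0637. On log2(FPKM + 1) without a filter, Mrps28, Mrpl16, Mrpl57, Mrpl38 and Mrpl19 did not pass in limma, with adjusted p = 0.0648, 0.0784, 0.0805, 0.0663 and 0.0575.

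The fibrosis libraries did not behave alike. The median over the 77 genes of log2(CPM + 0.5) minus the control mean was -0.14, -0.25, -0.31, 0.03 and -0.06 in fibrosis libraries 1 to 5, against 0.10, 0.00, -0.13, 0.03 and 0.01 in control libraries 1 to 5. Fibrosis 2 and 3 were the lowest, whereas fibrosis 4 lay among the controls. Fibrosis 3 held the lowest value of all 10 libraries for 33 genes and fibrosis 2 for 21. Summed over all 78 genes, the level was 3031, 2772, 2642, 3594 and 3306 CPM in fibrosis libraries 1 to 5, against 3537, 3354, 3048, 3403 and 3341 CPM in control libraries 1 to 5. The groups overlapped, with fibrosis 4 above every control library. The mean of this sum was 3069 ± 388 CPM over the fibrosis libraries, against 3336 ± 179 CPM over the control libraries (SD, n = 5 each).

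**Figure D3:**
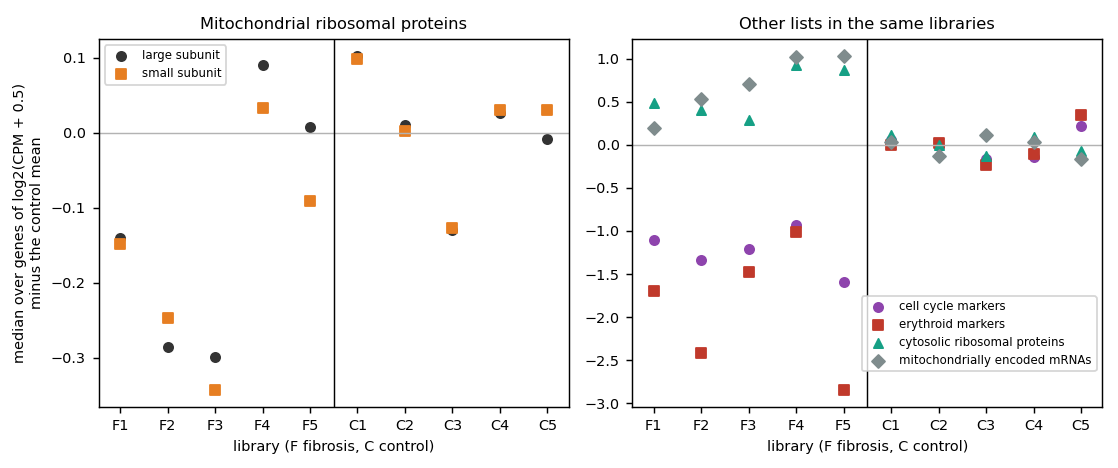
Median over the genes of a list of log2(CPM + 0.5) minus the mean of the control libraries, for each fibrosis library (F1 to F5, left) and control library (C1 to C5). The left plot shows both subunits moving together, lowest in fibrosis 2 and 3. In the right plot, medians of cell cycle and erythroid markers are low in every fibrosis library. Those of cytosolic ribosomal proteins and mitochondrially encoded mRNAs are high. By summed level, which is not plotted, erythroid markers in fibrosis 4 (7882 CPM) exceeded every control library.

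In 44 of the 77 genes (57.1%) fibrosis 4 and 5 both exceeded fibrosis 1 to 3, an order held by 24.4% of all tested genes. Fibrosis 1 to 3 all lay below every control library in 31 genes (40.3%), against 19.8% of all tested genes. Fibrosis 4 and 5 both lay above every control library in 25 genes (32.5%), close to the 30.2% of all tested genes. These orders were chosen after the values were seen. The 25 genes had a median transcript GC content of 45.5% and a median listed length of 2875 bases, and the 13 genes with all fibrosis libraries below all controls had 51.3% and 2089 bases. Examples of the first kind, also chosen after seeing the values, were Mrpl30 and Mrps33. Mrpl30 had 67.1, 65.7, 64.7, 99.7 and 107 CPM in fibrosis libraries 1 to 5, against 70.7, 66.8, 61.0, 66.0 and 62.0 CPM in control libraries 1 to 5, with a log2 fold change of 0.31 ± 0.14 (edgeR adjusted p = 0.115). Mrps33 had 20.3, 19.0, 22.0, 32.0 and 34.5 CPM in fibrosis libraries 1 to 5, against 22.0, 19.9, 15.8, 21.0 and 20.1 CPM in control libraries 1 to 5, with a log2 fold change of 0.37 ± 0.17 (edgeR adjusted p = 0.107). Without fibrosis 2, Mrps33 passed as higher, at 0.46 on the log2 scale (edgeR adjusted p = 0.0478). Mrps28 was the called gene with the clearest such split, with 19.4, 21.3, 19.9, 35.1 and 30.4 CPM in fibrosis libraries 1 to 5, against 37.0, 34.3, 32.4, 33.4 and 34.3 CPM in control libraries 1 to 5, and it fell by 0.45 ± 0.16 (edgeR adjusted p = 0.039).

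Without fibrosis 4 and 5, 34 genes were lower and the median log2 fold change was -0.24 in the large subunit and -0.26 in the small. Of the 19 genes, 18 were called again, and Mrpl38 was not. Macrophage markers followed the same split, with a median log2 difference from the control mean over 10 markers of -0.74, -0.89, -1.06, 0.91 and 0.92 in fibrosis libraries 1 to 5, and summed levels of 1783 to 6169 CPM in fibrosis and 3082 to 5090 CPM in control. Neutrophil markers split likewise, with medians over 8 markers of 0.19, -0.85, -1.56, 1.55 and 1.65 in fibrosis libraries 1 to 5 and sums of 356 to 4415 CPM in fibrosis and 562 to 1615 CPM in control. T cell markers, of which 1 of 9 was higher, had medians of 0.61, 0.13, -0.61, 1.11 and 0.90 in fibrosis libraries 1 to 5 and sums of 79.8 to 135 CPM in fibrosis and 70.9 to 95.4 CPM in control. Dendritic cell markers were higher at 4 of 7, with sums of 271 to 328 CPM in fibrosis and 161 to 176 CPM in control. NK cell markers were higher at 3 of 6, with sums of 55.4 to 124 CPM in fibrosis and 47.98 to 87.5 CPM in control. Of 6 tested plasma cell markers 1 was higher, with sums of 623 to 853 CPM in fibrosis and 586 to 742 CPM in control. Platelet markers were higher in fibrosis at 7 of 7, with sums of 292 to 1206 CPM in fibrosis and 177 to 220 CPM in control. Markers of dividing cells were lower at 20 of 20, with sums of 1474 to 2279 CPM in fibrosis and 4069 to 5267 CPM in control. Erythroid markers were lower at 14 of 19, with sums of 1013 to 7882 CPM in fibrosis and 4328 to 7046 CPM in control. B cell identity markers were higher at 4 of 12, with sums of 8145 to 11676 CPM in fibrosis and 7759 to 8902 CPM in control. Their medians were 0.44, 0.53, 0.38, -0.04 and 0.09 in fibrosis libraries 1 to 5, so they were highest in fibrosis 1 to 3. None of the 10 macrophage and 8 neutrophil markers was called in either direction. Among all tested genes 18.6% were higher and 17.2% lower. The shares higher of T cell and plasma cell markers, 11.1% and 16.7%, lay under that. No marker of these lists, tested or not, was at 0 in every library. The part of these cell populations in the result for the ribosomal protein genes was not tested.

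The nuclear genes that work with the mitochondrial ribosome were grouped into 5 lists. Their counts stand beside 17.2% lower and 18.6% higher among all tested genes. Of 5 ribosomal proteins with other names, Dap3, a GTP-binding protein of the small subunit, fell by 0.35 ± 0.09 on the log2 scale (edgeR adjusted p = 0.00971). Gadd45gip1, at the exit tunnel of the large subunit, had 36.5, 36.2, 27.1, 38.2 and 29.1 CPM in fibrosis libraries 1 to 5, against 52.5, 48.4, 40.05, 48.5 and 48.1 CPM in control libraries 1 to 5. Its groups did not overlap, and it fell by 0.51 ± 0.11 (edgeR adjusted p = 0.00356). Chchd1, Aurkaip1 and Ptcd3, all small subunit proteins, had 0.31, 0.16 and -0.21 and did not pass.

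Of 13 translation factors, 6 fell, with a median log2 fold change of -0.03. Gfm1, the elongation factor that moves the ribosome along the mRNA, had 40.5, 39.7, 39.8, 37.3 and 31.7 CPM in fibrosis libraries 1 to 5, against 64.3, 63.8, 58.0, 61.2 and 66.1 CPM in control libraries 1 to 5. The groups were far apart, and Gfm1 fell by 0.73 ± 0.09 on the log2 scale (edgeR adjusted p = 6.0e-05). Tufm, which delivers aminoacyl-tRNA, fell by 0.45 ± 0.13, Mrrf, which recycles ribosomes, by 0.36 ± 0.11, and Tsfm, the exchange factor of Tufm, by 0.35 ± 0.11 (edgeR adjusted p = 0.0131, 0.0171 and 0.0227). Without fibrosis 4 and 5 the list had 3 lower genes, and Tufm did not pass (adjusted p = 0.0581), nor did Tsfm without control 1 (0.0629) or control 2 (0.0533). Of 27 assembly factors, 8 fell and 1 rose, with a median of -0.11. Ybey, a ribonuclease that acts on ribosomal RNA, fell by 0.74 ± 0.18, Noa1, a GTPase of assembly, by 0.54 ± 0.12, Mpv17l2, an inner membrane protein, by 0.50 ± 0.09, and Mrm3, a methyltransferase of the large ribosomal RNA, by 0.44 ± 0.11 (edgeR adjusted p = 0.00554, 0.00323, 0.00127 and 0.00743). The gene that rose was the RNA methyltransferase Trmt2b, by 0.34 ± 0.09 (edgeR adjusted p = 0.00843).

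Of 20 mitochondrial aminoacyl-tRNA synthetases, 9 fell and 1 rose, with a median of -0.24. Aars2, Sars2 and Iars2, which charge tRNAs for alanine, serine and isoleucine, fell by 0.47, 0.46 and 0.44 on the log2 scale (edgeR adjusted p = 0.00245, 0.00207 and 0.00342). The gene that rose, Lars2, the leucine enzyme, had 124, 153, 269, 454 and 468 CPM in fibrosis libraries 1 to 5, against 106.5, 79.0, 87.1, 105 and 112 CPM in control libraries 1 to 5. All fibrosis libraries were above all controls, with fibrosis 4 and 5 highest (log2 fold change 1.59 ± 0.35, edgeR adjusted p = 0.00456). Without fibrosis 4 and 5 the log2 fold change of Lars2 was 0.91 (edgeR adjusted p = 0.0093). Of 15 tested genes of mitochondrial transcription and RNA handling, 5 fell and 2 rose, with a median of 0.01. Twnk, the mitochondrial DNA helicase, fell by 0.42 ± 0.08 and Supv3l1, an RNA helicase, by 0.36 ± 0.09 (edgeR adjusted p = 0.00144 and 0.0074), as did Elac2, Polg and Lrpprc, named after their values were seen, by 0.39, 0.34 and 0.24. Without fibrosis 4 and 5 the list had 2 lower and 2 higher genes, and Elac2, Polg and Lrpprc had log2 fold changes of -0.20, -0.18 and -0.17 that did not pass (edgeR adjusted p = 0.0623, 0.056 and 0.119). Tfam, which packages mitochondrial DNA and starts its transcription, rose by 0.30 ± 0.08 and Trmt10c, a subunit of mitochondrial RNase P, by 0.36 ± 0.11 (edgeR adjusted p = 0.00899 and 0.0194). With libraries scaled by library size alone neither Tfam nor Trmt10c passed (adjusted p = 0.0964 and 0.1003). Trmt10c did not pass without fibrosis 4 and 5 (adjusted p = 0.0711), control 1 (0.0548) or control 2 (0.059).

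The mRNAs and ribosomal RNAs made inside the organelle all had positive fold changes. Of 13 mitochondrially encoded mRNAs, which are what the mitochondrial ribosome translates, 11 rose, and all 13 had a positive fold change, with a median of 0.74 on the log2 scale. With an offset for gene length and GC content, 5 rose. Their summed level was 10910 to 19519 CPM in the fibrosis libraries and 8243 to 10504 CPM in the control libraries. The ribosomal RNAs mt-Rnr1 and mt-Rnr2 form the cores of the small and the large subunit. The libraries were made from poly-A selected RNA, so the counts may not follow the amount of these ribosomal RNAs, which was not tested. mt-Rnr2 had 386, 516, 540, 1789 and 1426 CPM in fibrosis libraries 1 to 5, against 353, 366, 460, 445 and 291 CPM in control libraries 1 to 5, and mt-Rnr1 had 233, 268, 292, 855 and 699 CPM in fibrosis libraries 1 to 5, against 212, 214, 266, 256 and 186 CPM in control libraries 1 to 5. Fibrosis 4 and 5 stood far above all other libraries in both. mt-Rnr2 rose by 1.28 ± 0.40 and mt-Rnr1 by 1.05 ± 0.35 on the log2 scale (edgeR adjusted p = 0.0276 and 0.0378). In the same order, without fibrosis 4 and 5 the values were 0.33 and 0.23 (adjusted p = 0.113 and 0.164), and neither passed without fibrosis 4 (0.0784 and 0.101), fibrosis 5 (0.0752 and 0.0974), control 1 (0.0585 and 0.0754), control 2 (0.0653 and 0.0842) or control 5 (0.0706 and 0.0895). mt-Rnr1 also did not pass without control 3 (0.054) or control 4 (0.0578). With the replicate number as a block, mt-Rnr2 had an adjusted p of 0.102 and mt-Rnr1 of 0.114.

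Ribosomal proteins of the cytosol are encoded by other genes. Of 77 tested genes of cytosolic ribosomal proteins, 64 rose and 1, Rps10, fell, with a median log2 fold change of 0.63. Their per-library medians relative to the control mean were 0.48, 0.41, 0.29, 0.93 and 0.87 in fibrosis libraries 1 to 5, against 0.11, 0.00, -0.13, 0.09 and -0.07 in control libraries 1 to 5. The median fold change of the mitochondrial ribosomal protein genes was -0.15. The difference between these gene groups was not tested.

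**Figure D4:**
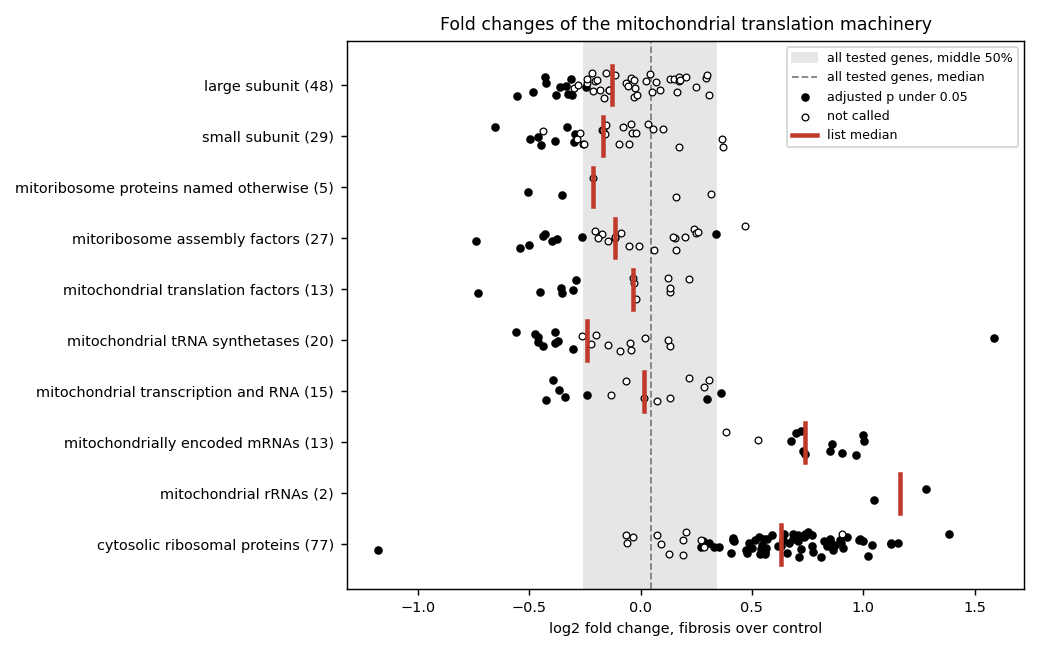
Log2 fold change, fibrosis over control, of each tested gene of the mitochondrial ribosome and related lists (number of genes in parentheses), with filled points at an adjusted p under 0.05 in edgeR, red bars at list medians and a grey band over the middle 50% of all tested genes. Both subunits centre below 0, at -0.13 and -0.17, whereas mitochondrially encoded mRNAs centre at 0.74 and cytosolic ribosomal proteins at 0.63.

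Many of the genes start close to another gene that runs the opposite way, by the gene intervals of the deposited table. Of the 78 genes, 24 (30.8%) had an oppositely directed protein-coding start within 1000 bases upstream or 250 bases inside, against 12.8% of tested protein-coding genes. Of the 23 such neighbours that were tested, 8 fell and 2 rose, where 17.2% of all tested genes were lower and 18.6% higher. Whether a gene and its neighbour change together was not tested. For the 8 genes that fell and had a tested neighbour, the neighbour fell in 4, rose in 1 and did not pass in 3. For the 15 genes that did not pass, the neighbour fell in 4, rose in 1 and did not pass in 10. The neighbours named here were chosen after their values were seen.

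Mrpl49 and Fau, whose start lies 137 bases away inside the Mrpl49 window shown above, went in opposite directions. Fau encodes a fusion of a ubiquitin-like protein and a protein of the cytosolic ribosome. It had 2406, 2219, 1806, 2592 and 2375 CPM in fibrosis libraries 1 to 5, against 1521, 1425, 1296, 1579 and 1313 CPM in control libraries 1 to 5. All fibrosis libraries were above all controls, and Fau rose by 0.68 ± 0.11 on the log2 scale (edgeR adjusted p = 0.000466), while Mrpl49 fell by 0.43.

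Mrpl51 starts 100 bases from Ncapd2, a subunit of the condensin complex of dividing cells. Ncapd2 had 182, 138, 135, 115 and 90.1 CPM in fibrosis libraries 1 to 5, against 335, 336, 275, 293 and 372 CPM in control libraries 1 to 5, and it fell by 1.29 ± 0.16 on the log2 scale (edgeR adjusted p = 8.02e-05). The decrease of Mrpl51 was 0.43. Mrpl57 starts 49 bases from Ska3, a kinetochore gene, which fell by 1.10 ± 0.16 (edgeR adjusted p = 0.000259), and Mrpl57 by 0.33. Mrps12 starts 172 bases from Sars2, and the decreases were 0.46 for Sars2 and 0.33 for Mrps12. The Mrps7 neighbour Gga3 fell by 0.19 ± 0.07 (edgeR adjusted p = 0.0403). Mrpl43 starts 116 bases from Twnk, and Twnk fell by 0.42 while Mrpl43 had -0.06 ± 0.09 and did not pass (edgeR adjusted p = 0.627). Mrpl27, which helps place tRNAs at the peptidyl transferase centre, had -0.14 ± 0.15 and did not pass (edgeR adjusted p = 0.504), while its neighbour Eme1, a DNA repair nuclease subunit, fell by 1.31 ± 0.14 (edgeR adjusted p = 3.87e-05).

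**Figure D5:**
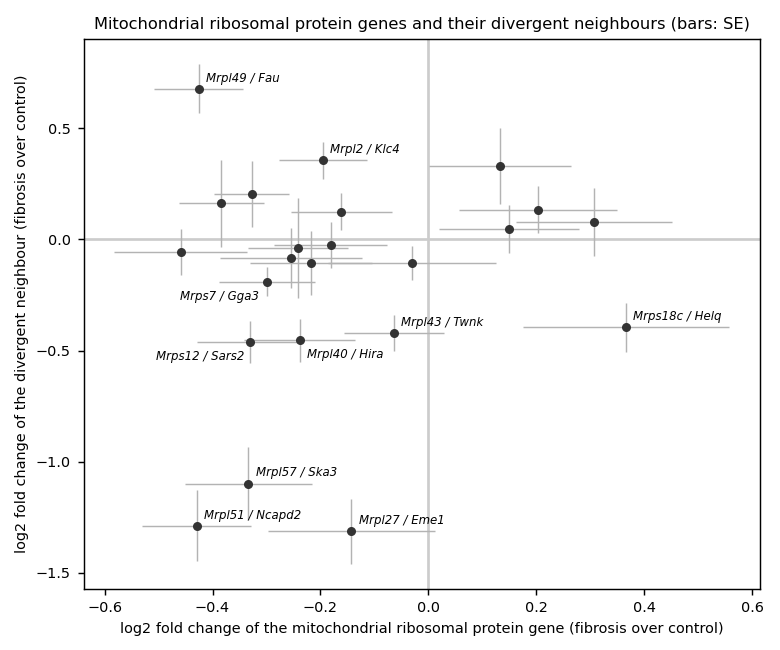
Log2 fold changes, fibrosis over control, of mitochondrial ribosomal protein genes (horizontal axis) and of the oppositely directed neighbours that start next to them (vertical axis), 23 pairs with a tested neighbour. Mrpl49 and Fau lie at -0.43 and 0.68, and Mrpl51 and Ncapd2 at -0.43 and -1.29.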

How the data were processed

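RNA of splenic B cells was sequenced after poly-T selection and random-hexamer priming, per the labels' protocols. The build was GRCm38 (mm10), per the submitters' processing notes. Aligner, counting program and the use of strand in counting were not stated in the sources used here. The authors deposited raw integer counts of reads for each gene and FPKM values. Each deposited FPKM was found to be the count over gene length and library total, multiplied by a constant of the library (0.935 to 1.07). Totals were 13439100 to 17069393 counts in the fibrosis libraries and 15912080 to 17954551 in the control libraries, and every pair of libraries differed by more than sampling noise.

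Groups follow the labels' disease state. With edgeR 4.0.16 in R 4.3.3, filterByExpr left 14283 genes, TMM scaled the libraries and the groups were compared by its quasi-likelihood test without covariates. The p-values were adjusted by the Benjamini-Hochberg method over all tested genes and called under 0.05. Fold changes are log2, fibrosis over control, with the standard error taken from the test's F. The biological coefficient of variation was 0.183, and the code was tested on simulated data. In the simulation 197 of 14115 genes were changed, whereas 35.7% of tested genes were called in these data. Of 97 genes with a true log2 change of 0.4, 7.22% were recovered, and of 100 with a change of 1, 67%. Among the simulated calls, 6.33% had no true change. The precision of a library's level is set by its counts, and 26 of the 78 genes overlap another expressed gene. The mitochondrial ribosomal genes, pathway lists and markers were chosen with earlier results of these data known. Named genes were the 8 largest called decreases and increases, the 6 highest and 3 lowest by mean FPKM, fixed members of each role, the regulators, and up to 4 genes of each other list with the smallest p. Called genes outside this rule are said to be so, and 1 gene the rule names is not reported here.

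Alternatives were other scalings and filters, DESeq2 1.42.0, limma 3.58.1 (voom, and log2 of FPKM plus 1 or 0.1), protein-coding genes alone, offsets for length and GC content, stricter thresholds, subunits by structure, a block for the replicate number, and omitting libraries. Replicate numbers are shared between the groups, but same-numbered libraries did not all deviate together, so the main result has no block.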

Additional observations from a re-analysis of the deposited data

Results flagged for a closer look

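The 162 groups of 5 libraries examined covered each named gene, the summed levels and the large over small ratio, in fibrosis and in control. Of these, 8 held a library that lay far from the other 4, and chance gives about 1 group in 20. Mrpl28 had 78.0 CPM in control 3, against 88.3 CPM in the nearest control library. Mrpl45 had 50.8 CPM in control 1, against 45.5 CPM in the nearest. Mrps30 had 33.4 CPM in fibrosis 4, against 26.8 CPM in the nearest fibrosis library. Among the related genes, Nrf1 had 100.6 CPM in control 5 (nearest 83.7), Gabpa 55.8 CPM in control 3 (nearest 47.5) and Max 118.8 CPM in control 3 (nearest 126.3). Mpv17l2 had 41.8 CPM (nearest 34.2) and Sars2 27.5 CPM (nearest 22.7), both in fibrosis 1.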

How the results depend on the processing

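The medians of the 77 genes and of each subunit stayed negative in every alternative, from -0.27 to -0.11 for the 77 genes, and no alternative turned any of the 19 decreases round. The count of lower genes in all, the large and the small subunit (19, 11 and 8) became 38, 22 and 16 with library size alone, 33, 19 and 14 with limma voom, and 9, 5 and 4 at an adjusted p under 0.01. It was 34, 21 and 13 without fibrosis 4 and 5, and 1, 0 and 1 when at least 1.5-fold was required. With offsets for length and GC content, 30 in all and 20 large subunit genes were lower, and with length alone 17 large subunit genes. Replicate numbers do not pair the libraries (correlations of same-numbered deviations 0.12, -0.14, 0.47, 0.28 and -0.29, with libraries 3 and 4 closest to their own number), and with the number as a block 20 genes were lower, 10 large and 10 small, 18 of them among the 19, with Mrpl46 lost; adding the length offset gave 30 and 18 for all and the large subunit. Leaving out 1 library at a time gave 11 to 25 lower genes, 6 to 14 in the large and 5 to 11 in the small subunit, with 0 to 1 higher genes (Mrps33, of the small subunit, without fibrosis 2). It gave 2 to 5 lower genes of transcription and RNA, 3 to 6 translation factors and 5 to 8 assembly factors, against 5, 6 and 8; the lowest counts came without control 1, control 2 and control 5, in that order. Lower genes of transcription and RNA and translation factors numbered 2 and 3 on log2(FPKM + 1) without a filter, and 2 and 3 without fibrosis 4 and 5; at an adjusted p under 0.01 they and the assembly factors numbered 2, 1 and 4, and at 1.5-fold 0, 1 and 1, with 0 synthetases. Higher mitochondrially encoded mRNAs numbered 5 with the length and GC offset. Genes that did not pass changed sign as follows (log2 fold change). With library size alone, the value was Mrpl52 -0.063, Mrpl47 -0.082, Mrpl11 -0.069, Mrpl23 -0.024, Mrps30 -0.074 and Max -0.0092. With no filter, the value was Mrpl52 -0.0065, Mrpl47 -0.034, Mrpl11 -0.015 and Mrps30 -0.018. With a 1 CPM filter, the value was Gabpb2 0.0020. With voom, the value was Mrpl52 -0.13, Mrpl54 -0.00071, Mrpl47 -0.080, Mrpl11 -0.054, Mrps30 -0.014, Aurkaip1 -0.0094, Gabpb2 0.054 and Yy1 0.052. With log2(FPKM + 1) (filtered or not), the value was Mrpl52 -0.0049 and Mrpl47 -0.00059. With log2(FPKM + 0.1), the value was Mrpl52 -0.0054 and Mrpl47 -0.0013. With protein-coding genes alone, the value was Mrpl12 0.00055, Gabpb2 0.017 and Yy1 0.010. With the length offset, the value was Mrpl52 -0.076, Mrpl54 -0.018 and Yy1 0.013. With the length and GC offset, the value was Mrpl52 -0.035, Mrpl54 -0.015, Mrpl47 -0.060, Mrps30 -0.21, Gabpa -0.060 and Yy1 0.034. With block and length offset, the value was Mrpl52 -0.091, Mrpl54 -0.023 and Yy1 0.013. With no fibrosis 4 and 5, the value was Mrpl52 -0.25, Mrpl54 -0.067, Mrpl47 -0.12, Mrpl11 -0.095, Mrpl23 -0.0049, Mrps30 -0.056, Mrps18c -0.017, Chchd1 -0.13, Aurkaip1 -0.14, Gabpb2 0.11 and Yy1 0.079. Leaving out 1 library at a time, the range was Gabpb2 -0.12 to 0.081, Mrpl11 -0.049 to 0.073, Mrpl12 -0.12 to 0.032, Mrpl47 -0.046 to 0.083, Mrpl52 -0.074 to 0.13, Mrps30 -0.046 to 0.060, Yy1 -0.041 to 0.032. The cause of each shift was not tested.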

Other observations

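Processed pseudogenes of the family held few counts. Mrpl23-ps1 had 159 counts summed over the fibrosis libraries and 129 over the control libraries, and Mrpl48-ps had 88 over the fibrosis libraries and 110 over the control libraries. Of the oppositely directed neighbours, Klc4, a kinesin light chain next to Mrpl2, rose by 0.36 ± 0.08 on the log2 scale (edgeR adjusted p = 0.00501), while Mrpl2 had -0.19 and did not pass. Hira, a histone chaperone next to Mrpl40, fell by 0.45 ± 0.10 (edgeR adjusted p = 0.00271), and Helq, a DNA helicase next to Mrps18c, fell by 0.40 ± 0.11 (edgeR adjusted p = 0.013). All 3 were chosen after their values were seen.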
